A study of Rattus norvegicus with 9 samples.

Results

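The tags described here are short reads that the depositors assigned to 1 of 3 eukaryotic ribosomal RNA (rRNA) families of Rfam, a library of RNA family models. The families are 5.8S rRNA, the small subunit (SSU, 18S in mammals) and the large subunit (LSU, 28S in mammals). A tag is 1 distinct read sequence, listed in each library with its read count, and every share below is weighted by that count. The members were all tags with 1 of these 3 assignments: 164829 of the 485728 distinct tags listed in 9 libraries, with 30340 in the 5.8S family, 55734 in SSU and 78755 in LSU. A family label is a model match. Of the reads set against a stretch of mammalian rRNA here, a large part carried edits as aligned.

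The libraries are small RNA from exosomes of primary peritoneal macrophages, taken by lavage from untreated rats and kept in RPMI-1640 medium with 10% fetal bovine serum. Exosomes are small vesicles that cells release. Control cells received DMSO, the solvent, at 0.1% for 24 h. LPS cells received 100 ng/ml lipopolysaccharide, a bacterial cell wall component that activates macrophages, for 6 h. LPS+AS-IV cells, the pretreated group, received 150 µM astragaloside IV, a plant saponin, for 24 h before the same LPS. Both agents were dissolved in DMSO, and the final DMSO level is given for Control alone. Each group has 3 libraries, and no label says whether they are separate animals or cultures. The p-values therefore measure the spread between libraries alone, which may be technical. Fewer vesicles or cells of a type and less RNA in each cannot be told apart in such bulk samples.

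Assigned reads ranged from 3484099 to 9527483 per library. As a check of the labelled cell type, the mature form of miR-223-3p, a myeloid miRNA, stood at 0 to 141 RPM (reads per 1000000 assigned reads) and was listed at 0 in LPS 1, LPS 2 and LPS+AS-IV 1. miR-146a-5p, an miRNA of the inflammatory response, was listed in all 9 libraries at 51.2 to 461 RPM. Another such miRNA, miR-155-5p, stood at 0 to 26.2 RPM and was at 0 in Control 1, Control 3 and LPS+AS-IV 3. miR-21-5p stood at 0.537 to 73.6 RPM. miR-451-5p, an miRNA of red blood cells, stood at 35.6 to 2889 RPM, and miR-122-5p, an miRNA of liver that also circulates in serum, at 8.81 to 306 RPM. miR-451-5p was above miR-223-3p in every library, and miR-122-5p in every library but Control 3, where it stood at 13.1 RPM and miR-223-3p at 13.8. Their part in the rRNA results was not tested.

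In mammals, 18S, 5.8S and 28S rRNA are cut from 1 precursor. The 18S rRNA forms the small ribosomal subunit, which reads the message, and 28S with 5.8S and the separately made 5S rRNA forms the large subunit, which joins amino acids. Fragments of mature rRNA occur in cells and in body fluids, often as sets of tags that share 1 end. Parts of rRNA are nearly identical across all life, so a short fragment can match the model of another domain, and 5.8S is the counterpart of the 5′ end of the bacterial large subunit rRNA. The same mammalian sequences occur in rat and in cattle, so RNA from cells and from fetal bovine serum cannot be told apart in these tags.

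The following tags carry the mammalian part of the 5.8S and LSU families. Each is shown 5′ to 3′ as deposited, and within a set the tags differ only at the 3′ end. Capitals mark the stretch all tags of a set share and by which the form was counted below: 24 nt for 5.8S and 30 nt for 28S. No rat 5.8S or 28S reference was used here, and both stretches were recognised as the 5′ ends of the mammalian RNAs from background knowledge after the tags had been seen.
5.8S, 24 nt: GACTCTTAGCGGTGGATCACTCGG
5.8S, 25 nt: GACTCTTAGCGGTGGATCACTCGGc
5.8S, 26 nt: GACTCTTAGCGGTGGATCACTCGGct
5.8S, 32 nt: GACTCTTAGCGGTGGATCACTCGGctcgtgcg
28S, 34 nt: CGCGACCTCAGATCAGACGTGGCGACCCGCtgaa
28S, 35 nt: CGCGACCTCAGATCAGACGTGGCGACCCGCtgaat
28S, 36 nt: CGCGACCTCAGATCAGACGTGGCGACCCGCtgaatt

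For 18S, a 300-base window of rat sequence was at hand. It is the RefSeq promoter window of Rn45sl1, GRCr8 chr11:488271-488570, read on the minus strand, and it lies inside the annotated rRNA gene LOC120099695, chr11:488049-489920, at positions 1351 to 1650 of an RNA 1872 bases long. The tags below matched it without an edit and are shown as examples of rat-identical tags that only some libraries list, chosen after their values were seen.
18S, chr11:488416-488446: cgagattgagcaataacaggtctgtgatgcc
18S, chr11:488541-488569: gtggagcgatttgtctggttaattccgat
18S, chr11:488510-488543: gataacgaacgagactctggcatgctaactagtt
18S, chr11:488401-488422: tgatgcccttagatgtccgggg

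The 3 families together took 12.6% to 35.8% of assigned reads, with no group set apart. Control libraries 1 to 3 held 12.6%, 24.8% and 32.2%, LPS libraries 14.0%, 22.1% and 31.6%, and LPS+AS-IV libraries 15.4%, 33.3% and 35.8%. Group means were 23.2% ± 9.89 (SD, n = 3), 22.6% ± 8.81 and 28.2% ± 11.1. The groups overlapped, and LPS+AS-IV minus Control was 4.94 percentage points (exact two-sided permutation test, p = 0.5, adjusted p = 1 over 12 share comparisons). With 3 libraries against 3 this exact permutation test cannot go below p = 0.1. The 95% Wilson interval of a share was narrow, 35.757% to 35.830% in LPS+AS-IV 3, and covers counting error only, as the reads have no molecular identifiers.

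In percentage points, the 5.8S family spanned the widest range of shares. Control libraries held 5.96%, 8.89% and 20.6% of assigned reads in 5.8S tags, LPS libraries 6.74%, 10.4% and 18.2%, and LPS+AS-IV libraries 5.69%, 25.5% and 8.88%. Each group had 1 library well above its other 2, and group means were 11.8% ± 7.75, 11.8% ± 5.87 and 13.4% ± 10.6 (SD, n = 3). The SSU family held 2.30%, 7.05% and 4.76% in the Control libraries, 2.55%, 5.69% and 4.90% in those with LPS alone and 3.61%, 3.09% and 12.4% in the pretreated ones. The LSU family held 4.38%, 8.88% and 6.87% in the Control libraries, 4.72%, 6.03% and 8.49% in those with LPS alone and 6.15%, 4.69% and 14.5% in the pretreated ones. LPS+AS-IV 3 stood highest for both subunits, while the other 8 libraries overlapped between groups. Without LPS+AS-IV 3, LPS+AS-IV minus Control turned from 1.66 to -1.35 percentage points for SSU and from 1.75 to -1.29 for LSU. No share differed between groups by more than the spread of libraries, with exact two-sided permutation p from 0.5 to 1 and every adjusted p at 1.

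**Figure D1:**
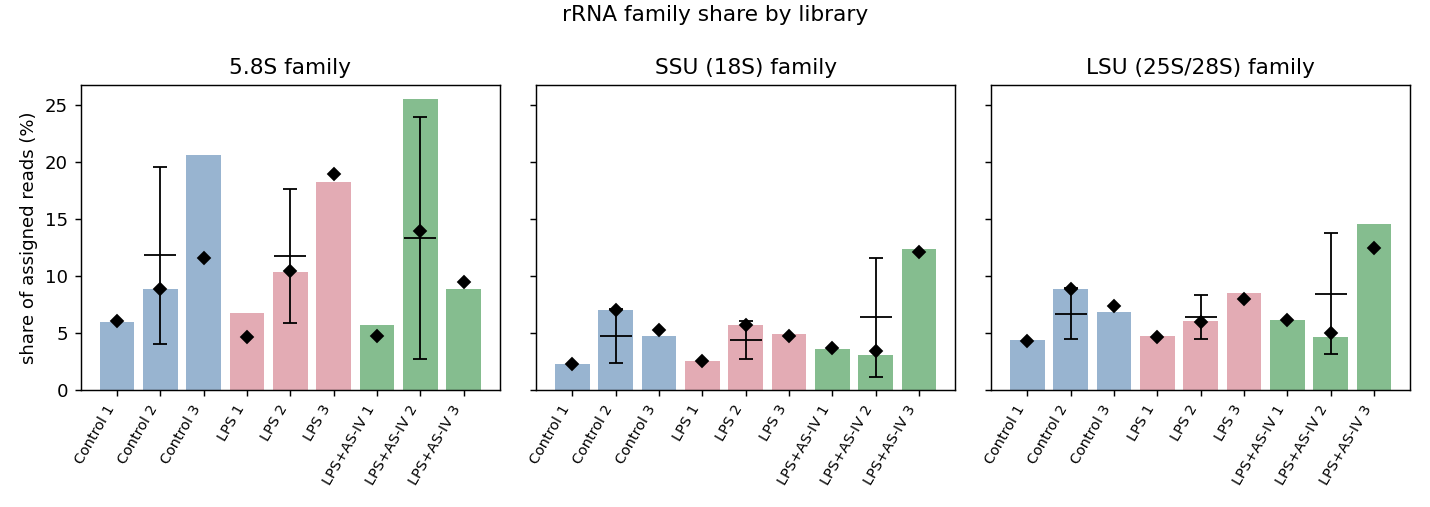
Share of assigned reads (%, y axis) in each of the 3 rRNA families for the 9 libraries (x axis). Bars give all listed tags, black diamonds the share over tags above the common score floor described in the text, and crosses with bars the group mean ± SD (n = 3). The 5.8S share of LPS+AS-IV 2 stands at 25.5% and that of Control 3 at 20.6%, and their diamonds lie far below their bars.

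The families differed in how few sequences made them up. Grouped by their first 15 bases, the leading 10 groups held 78.6% of 5.8S reads, 12.4% of SSU reads and 17.5% of LSU reads. Mean tag length was 25.1 to 29.3 nt for 5.8S, 26.8 to 32.4 nt for SSU and 29.1 to 33.4 nt for LSU. LSU tags averaged 30.5, 31.2 and 29.9 nt in Control and 31.6, 31.9 and 31.3 nt in LPS, so the LPS libraries lay above the Control libraries without overlap. That difference, 1.04 nt, gave the smallest p the design allows (exact two-sided permutation test, p = 0.1) and an adjusted p of 0.9 over 9 length comparisons. It was 0.33 nt with each distinct tag counted once. The log2 ratio of LSU to SSU reads was 0.60 ± 0.30 in Control, 0.59 ± 0.44 with LPS alone and 0.53 ± 0.28 in the pretreated group (SD, n = 3), with exact permutation p of 0.8 to 1.

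The lists themselves differed between libraries in a way that touched the shares. Each Rfam assignment carries a score, and the lowest score listed was not the same in every library. For 5.8S it was 8.9, 9.3 and 8.1 in Control 1 to 3, 8.5, 9.1 and 7.9 in LPS 1 to 3, and 8.6, 8.0 and 6.7 in LPS+AS-IV 1 to 3. In all 17 Rfam families with at least 100 tags in every library, the lowest score was highest in Control 2 and lowest in LPS+AS-IV 3. A tag that scores below 9.3 could thus be listed in 1 library and not in another whatever its abundance. A common score floor kept only tags at or above the highest of the library minima (9.3 for 5.8S, 8.9 for SSU and 11.4 for LSU). The sums were then 20.6% ± 6.84, 21.9% ± 9.85 and 23.6% ± 9.84 in Control, LPS and the pretreated group (SD, n = 3). Shares with this floor are of the assigned reads it kept, which were 82.4% of all in Control 3 and 100% in Control 2.

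**Figure D2:**
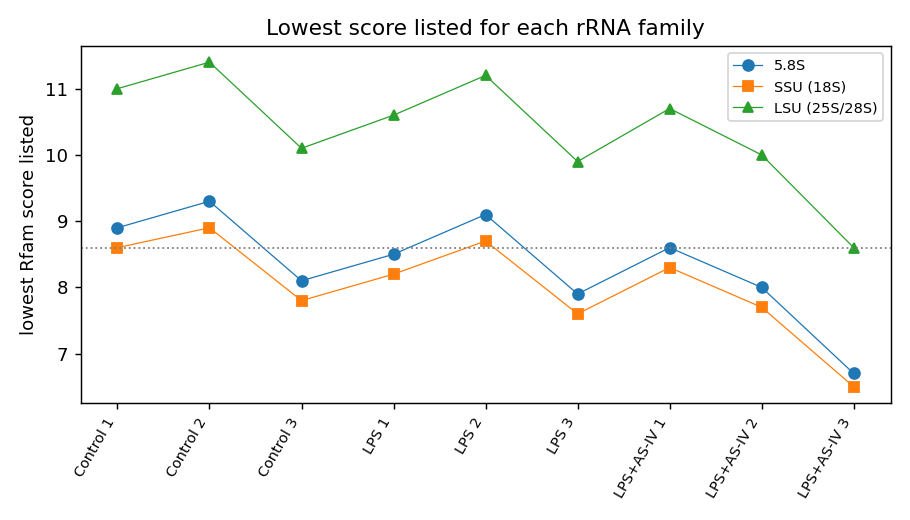
Lowest Rfam score listed (y axis) for each rRNA family in the 9 libraries (x axis), with lines joining points of 1 family as a guide only. The dotted line marks 8.6, the score of the leading 5.8S tag, and the 5.8S points of Control 1, Control 2 and LPS 2 lie above it.

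The leading tag of the 5.8S family was listed in some libraries and not in others. It is 24 nt long, scored 8.6, and had 889583 reads in Control 3, 208189 and 562 reads in LPS 1 and LPS 3, and 106511, 1252775 and 807 reads in the 3 pretreated libraries. It was not listed in Control 1, Control 2 and LPS 2, the 3 libraries whose lowest 5.8S score was above 8.6. The lowest score is taken over the listed tags, so a library above 8.6 cannot list this tag, by definition. Why the tag was not listed there was not tested. The tag ranked next, 25 nt long with a score of 10.3, was listed in all 9 libraries, at 15975, 27058 and 34581 RPM in the Control libraries, 8545, 43138 and 48.9 in those with LPS alone and 5619, 45708 and 54.9 in the pretreated ones. It was low in LPS 3 and LPS+AS-IV 3 and high in the other 7 libraries.

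Both of these leading 5.8S tags were 8 edits (substitutions, insertions or deletions) away from the 24-nt mammalian stretch shown above, and they were not compared with the rest of mammalian 5.8S. They are not printed. The name given to tags that end on the leading 24 nt changed with how far they reached upstream. With up to 9 more bases at the 5′ end, all 3978107 reads were in 5.8S. With 10 to 12 more bases, 49.5% of reads were in 5.8S and the rest in the bacterial LSU family. With 13 to 21 more bases, 2542654 reads were in bacterial LSU and 10 in 5.8S. Tags that ran past the 3′ end of the leading tag were in bacterial LSU for 99.6% of their reads and in 5.8S for 0.294%. By contrast, the mammalian 24-nt stretch was in 5.8S for all 360929 reads that end on it and all 2007806 reads that run past it. The 28S stretch was in eukaryotic LSU for 228037 reads, 99.999% of those that hold it.

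Split by sequence, the 5.8S family as listed was a mixture whose proportions differed between libraries. A tag was counted as the mammalian form where it lay within 2 edits of the 24-nt stretch (3513 tags), and as the leading form where it lay within 2 edits of the leading tag (2475 tags). Tags from other parts of mammalian 5.8S are in neither form. The mammalian form made up 28.5%, 17.2% and 10.3% of 5.8S reads in the Control libraries, 16.6%, 10.7% and 88.7% in those with LPS alone and 16.1%, 14.3% and 39.6% in the pretreated ones. The leading form made up 39.4%, 48.6% and 77.5% in the Control libraries, 59.7%, 67.1% and 0.696% in those with LPS alone and 45.4%, 77.5% and 5.36% in the pretreated ones. LPS 3 was the only library in which the mammalian form made up most of the family, and LPS 3 and LPS+AS-IV 3 were the 2 libraries where the leading form was rare. These shares are over all listed tags, and the leading tag scores under the common floor. With that floor, the leading form fell from 1313150 to 415385 reads in Control 3 and from 1797847 to 536276 in LPS+AS-IV 2. It stayed at 235735 in Control 2. All 5.8S reads of Control 3 and LPS+AS-IV 2 fell from 1693471 to 783700 and from 2318832 to 1046825. The mammalian form kept 173667 and 331601 there. The proportions thus depend on the floor.

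On the RPM scale, the mammalian 5.8S form stood at 17001, 15312 and 21138 in the Control libraries, 11192, 11052 and 161522 in those with LPS alone and 9184, 36449 and 35163 in the pretreated ones. The level in LPS 3 was 4.43 times that of the next highest library. The LPS mean was 61255 ± 86834 (SD, n = 3), and 11122 over LPS 1 and LPS 2 alone, against 17817 ± 2998 in Control and 26932 ± 15384 in LPS+AS-IV. With LPS 3 the LPS mean was above the Control mean, and without it below. These forms were chosen after the tags had been seen, so the group values are a description with no test.

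The mammalian 28S start gave a different picture. It stood at 548, 1941 and 704 RPM in the Control libraries, 2544, 716 and 11651 in those with LPS alone and 3199, 4372 and 2948 in the pretreated ones. All 3 LPS+AS-IV libraries lay above all 3 Control libraries, and the LPS libraries spanned both. This form too was chosen after the tags had been seen, and its group values were not tested. Of its 19754 reads in LPS+AS-IV 3, 4973 were the 34-nt tag, which no other library listed. The 36-nt tag alone overlapped between these groups, at 683 RPM in LPS+AS-IV 3 and 1098 in Control 2. Group means were 1064 ± 763, 4970 ± 5857 and 3506 ± 760 (SD, n = 3), with 1630 over LPS 1 and LPS 2. A related start in the same family, 7 to 10 edits away from the 30-nt stretch, was steadier, at 5905, 9065 and 5829 RPM in the Control libraries, 5628, 6032 and 4641 in those with LPS alone and 7573, 3405 and 7354 in the pretreated ones. Of both starts together, the mammalian one made up 8.49%, 17.6% and 10.8% in the Control libraries, 31.1%, 10.6% and 71.5% in those with LPS alone and 29.7%, 56.2% and 28.6% in the pretreated ones. Between these 2 forms lay almost no reads: tags 4 to 6 edits from the mammalian stretch had at most 118 reads in a library.

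**Figure D3:**
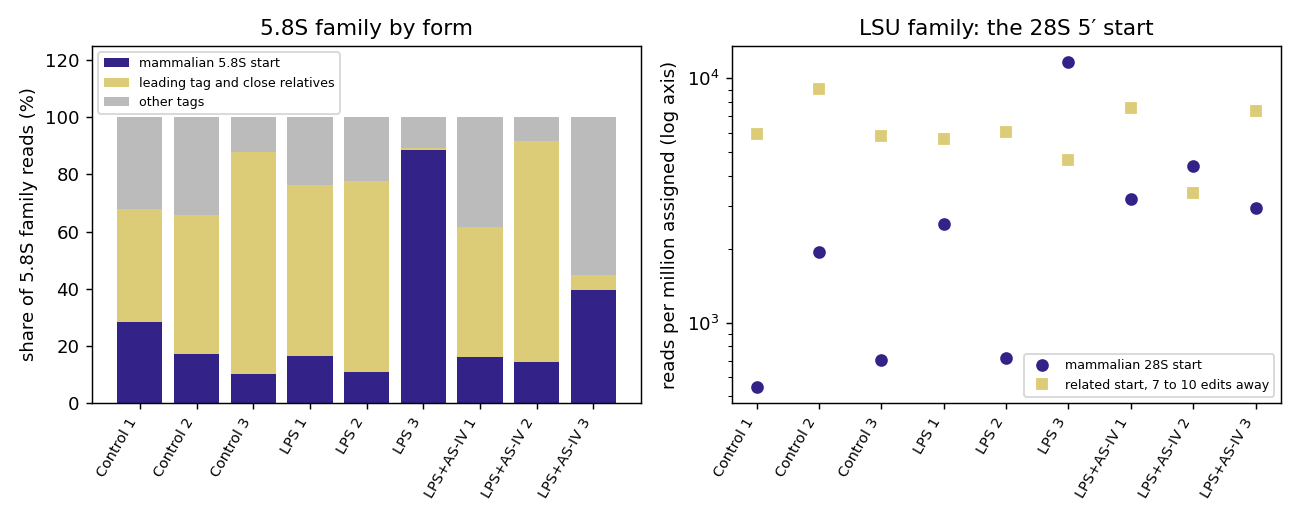
Left, percent of 5.8S family reads (y axis) in the mammalian form, the leading form and all other tags, for the 9 libraries (x axis), over all listed tags without the common score floor. Right, RPM (log axis) of the mammalian 28S start (circles) and of the related start 7 to 10 edits away (squares). The mammalian form fills 88.7% of the 5.8S bar of LPS 3, and its 28S circle lies above the square in LPS 3 and LPS+AS-IV 2 only.

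Among single tags, the 26-nt 5.8S tag shown above stood at 4612, 2688 and 5424 RPM in the Control libraries, 2216, 2205 and 52240 in those with LPS alone and 2282, 3862 and 13050 in the pretreated ones. It was highest in LPS 3 and next in LPS+AS-IV 3, and the other 7 libraries lay between 2205 and 5424. The 36-nt 28S tag stood at 279, 1098 and 458 RPM in the Control libraries, 1586, 291 and 7416 in those with LPS alone and 1965, 2543 and 683 in the pretreated ones. The groups overlapped for both tags, with log2 fold changes of 1.76 (SE 1.59) and 2.32 (SE 1.75) for LPS against Control and an adjusted p of 1 for each (edgeR quasi-likelihood test over all tags, Benjamini-Hochberg). Without LPS 3, the 5.8S value fell to a log2 fold change of -1.16.

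The lengths of the mammalian tags formed short ladders. Of the tags that begin exactly with the 24-nt 5.8S stretch, 247 in all, 74.1% to 92.6% of reads were at most 27 nt long, with the commonest length at 24, 25 or 26 nt. A second, smaller step lay at 32 nt, from 1.66% of these reads in LPS+AS-IV 3 up to 11.8% for LPS+AS-IV 2. Tags with the exact 28S stretch were mostly 36 nt long in 8 libraries, 47.7% to 68.2% of reads. In LPS+AS-IV 3 the commonest length was 34 nt, with 26.7% of reads, and 18.8% were 33 nt long.

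That difference rested on tags that the other 8 libraries did not list. The 34-nt 28S tag shown above had 4973 reads in LPS+AS-IV 3 and 0 in each of the others, while the 35-nt and 36-nt tags were listed in all 9. Its score, 11.8, was above the lowest LSU score of every library (8.6 to 11.4), so the floor alone does not set which tags were listed. What else does was not tested. Of 662 members with at least 1000 reads in some library, 448 were absent from at least 1 other library, and 140 of those 448 scored under the common floor.

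**Figure D4:**
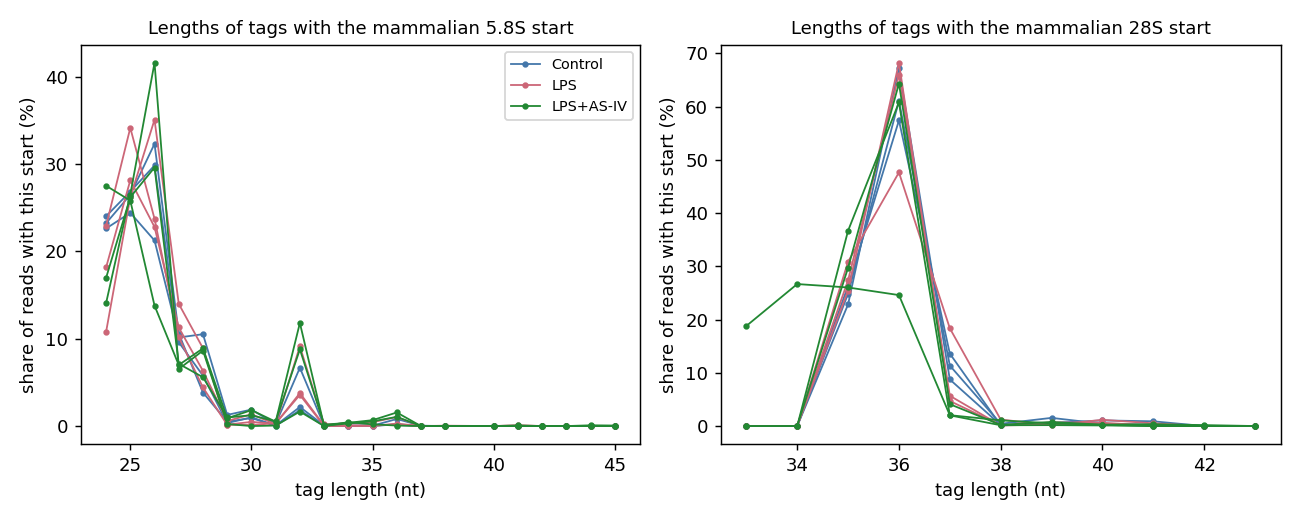
Share of reads (%, y axis) by tag length in nt (x axis) among tags that begin with the mammalian 5.8S stretch (left) or 28S stretch (right), 1 line per library coloured by group. The 28S line of LPS+AS-IV 3 has 18.8% and 26.7% of reads at 33 and 34 nt, where the other 8 lines are near 0.

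SSU reads could be set against rat sequence directly in the 18S window. Tags of at least 20 nt that aligned to it with at most 25% edits numbered 4040 and held 3.38% to 9.38% of SSU reads per library. Of these tags 159 matched the rat window exactly. Exact tags held 3.93%, 8.77% and 9.41% of window reads in the Control libraries, 5.45%, 4.70% and 6.51% in those with LPS alone and 1.48%, 7.23% and 3.33% in the pretreated ones. Tags with at least 2 edits held 79.8% to 95.4%. The exact share does not bound the rat share: a conserved stretch also matches other eukaryotes, and rat reads with a sequencing error or a modified base carry an edit. Tags with 1 edit held 1.26% to 10.8%. When only alignments with at most 15% edits were kept, the exact share was 3.26% to 17.8% and tags with at least 2 edits held 61.9% to 92.4%. In every library most SSU reads of this window were thus at least 2 edits away from it as aligned. Each tag was aligned within the window alone, so bases reaching past a window end count as edits. How many of these tags match rat 18S outside the window was not tested.

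**Figure D5:**
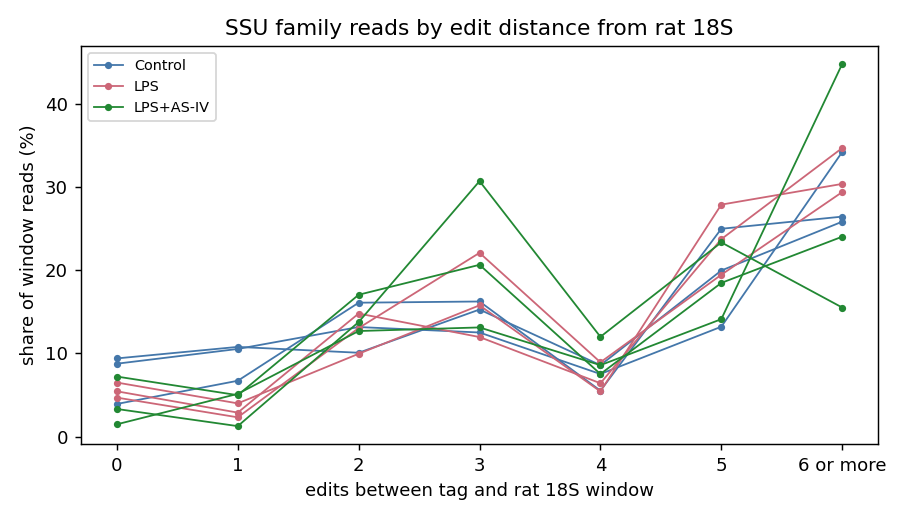
Share of window reads (%, y axis) in the SSU family by the number of edits between tag and rat 18S window (x axis, 6 standing for 6 or more), 1 line per library coloured by group. Bases past a window end count as edits. All 9 lines start between 1.48% and 9.41% at 0 edits and lie above 15% at 6 or more.

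Exact 18S tags were listed in some libraries and not in others. The tag at chr11:488416-488446 had 1, 365 and 358 reads in Control 1 to 3 and 0 in the other 6 libraries. The tag at chr11:488541-488569 had 1, 358 and 217 reads in Control and 0 elsewhere. The tag at chr11:488510-488543 had 283 reads in LPS 3 and 827 in LPS+AS-IV 3 and 0 elsewhere, and its score of 8.1 is under the lowest SSU score of Control 1, Control 2, LPS 1, LPS 2 and LPS+AS-IV 1. The tag at chr11:488401-488422, with a score of 10.3, had 1025 reads in LPS+AS-IV 3 and 0 elsewhere. A count of 0 allows up to 0.315 to 0.861 RPM in a library (3 reads), counting error only and only where the tag would have been listed.

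The other leading SSU tags were not tied to 1 group, with 1 exception. Ranks 1 to 3 of the family, 34, 25 and 34 nt long, were listed in all 9 libraries at 192 to 996, 37.1 to 1358 and 159 to 902 RPM. Ranks 4 and 5, 32 and 33 nt long, had 9803 and 7789 reads in Control 2, 7085 and 6520 in Control 3, and 17 and 2 in Control 1. LPS+AS-IV 3 listed them with 2 and 4 reads, and both were at 0 in the other 5 libraries. They are nested versions of 1 fragment with a common 3′ end, as are ranks 12 and 26. The 39 tags that hold this fragment made up 6.84% of SSU reads in Control 2, 5.40% in Control 3, 0.017% in Control 1 and at most 0.001% in the other 6 libraries. The fragment separated Control 2 and Control 3 from all others, Control 1 included, and its scores of 12.5 or more are above the SSU floor of every library.

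Across all tags, no member passed the test in any of the 3 comparisons, which share libraries with each other. The edgeR quasi-likelihood test covered 17733 tags with enough reads, 6981 of them members, and 6449 of these members were at 0 in at least 1 library. The number called at an adjusted p under 0.05 was 0 for LPS against Control (0% of all tags tested), 0 for LPS+AS-IV against LPS (0%) and 0 for LPS+AS-IV against Control (0%). At an unadjusted p under 0.05 the test marked 393, 702 and 610 members in these comparisons, where the share over all tags was 6.33%, 8.68% and 8.67%. The smallest adjusted p of a member was 0.529, 0.371 and 0.464. The median log2 fold change over members was -0.17, -0.08 and -0.33, beside -0.34, -0.07 and -0.49 over all tags tested. DESeq2 called 128, 240 and 249 members, of 342, 529 and 541 tags in all, which were 3.15%, 4.75% and 4.44% of the tags it gave an adjusted p.

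The spread between libraries of a group was large, with a square root of the common dispersion of 2.43. In simulated counts with that spread for LPS against Control over 17733 tags, the test recovered 0 of 100 tags changed 4-fold and 0 of 100 changed 16-fold. With a dispersion of 0.2 it recovered 43 and 100, with 7 false calls. Each simulation gave every tag the same spread, so it does not give the recovery for tags whose own spread differs.

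The member with the smallest p for LPS against Control, and for LPS+AS-IV against Control, was the SSU tag of rank 4 described above. It stood at 809 RPM over the pooled Control reads, with 2.35, 1799 and 862 RPM in Control 1 to 3. All 3 LPS libraries were at 0 (edgeR adjusted p = 0.529). With 3 reads taken over the LPS group, the pooled Control level would be at least 5861-fold higher. That bound covers counting error only, and holds only where the LPS libraries would have listed the tag. The tag was picked for its small p and passed the read filter through Control alone. The bound therefore describes this tag and is no support for a group difference. An LSU tag of 41 nt, rank 119, had 9, 1978 and 638 reads in Control and 0 in the other 6 libraries. For LPS+AS-IV against LPS the smallest p belonged to an LSU tag of 28 nt, rank 79, with 269, 146 and 3268 reads in LPS+AS-IV, 0 in all LPS libraries and 78, 0 and 270 in Control (adjusted p = 0.371). An SSU tag of 29 nt, rank 129, had 131, 113 and 2145 reads in LPS+AS-IV, 0 in LPS and 17, 40 and 117 in Control. An LSU tag of 29 nt, rank 568, went the other way, with 106, 82 and 729 reads in LPS and 0 in all LPS+AS-IV libraries. An SSU tag of 31 nt, rank 182, had 7, 951 and 946 reads in Control and none with LPS alone, and an SSU tag of 32 nt, rank 213, had 2, 660 and 1049 reads in Control and none in the pretreated group. In each of these tags the group with reads had libraries that differed by several-fold. All were picked for a small p and passed the read filter only through libraries that listed them.

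Summed by family and tested beside all other assignment names, no rRNA family passed the test either. LPS against Control gave log2 fold changes of 0.11 (SE 0.94) for 5.8S, -0.10 (SE 0.77) for SSU and 0.05 (SE 0.81) for LSU, each with an adjusted p of 1.00 (edgeR), where 0.0796% of 1257 names were called. LPS+AS-IV against LPS gave 0.19, 0.07 and -0.08, where 0.0796% of names were called, and LPS+AS-IV against Control 0.30, -0.04 and -0.03, where 0.159% were called, none with an adjusted p under 0.996. DESeq2 called none of the 3 families either, where it called 0.973%, 1.73% and 1.9% of names in the 3 comparisons.

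The RNAs that make or accompany rRNA were looked up by a fixed list. It held 17 names: bacterial, archaeal, microsporidian and trypanosome rRNA, 5S rRNA and tRNA, the RNA of RNase P and RNase MRP, which cut tRNA and rRNA precursors, and snoRNAs such as U3 and U8, which guide rRNA processing. Of these 14 had enough reads, and 0 of their 42 tests passed, with 3 at an unadjusted p under 0.05. 5S rRNA, the other RNA of the large subunit, made up 0.119% ± 0.027 of assigned reads in Control, 0.202% ± 0.071 with LPS alone and 0.521% ± 0.447 in the pretreated group (SD, n = 3), a log2 fold change of 1.70 (SE 0.80) for LPS+AS-IV against Control (edgeR adjusted p = 0.744). The fungal U3 family gave 2.13 (SE 0.98) for LPS+AS-IV against LPS and the RNase P RNA -5.13 (SE 2.33), each with an adjusted p of 0.894. The RNase P RNA rested on few reads, 66, 319 and 15 in the LPS libraries and 8, 2 and 4 in the pretreated ones. It was the only one of these names that DESeq2 called, with a log2 fold change of -5.19 and an adjusted p of 0.0365. Bacterial LSU took 13.04% ± 0.591, 15.2% ± 11.8 and 12.6% ± 4.83 of assigned reads in Control, LPS and the pretreated group. These means were near those of the 5.8S family, but single libraries were not alike. Bacterial LSU took 26.8% in LPS 2 and 3.24% in LPS 3, where 5.8S took 10.4% and 18.2%.

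The label overlap extended beyond the leading 5.8S tags. Of all members, 45 tags with 11653 reads were also listed under a bacterial, archaeal or other non-eukaryotic or protist rRNA family in some library. A stretch of 15 bases shared with a tag of such a family was found in 45675 members, which held 56.4% of member reads. By family, 49.5% to 90.3% of 5.8S reads, 38.9% to 44.7% of SSU reads and 17.98% to 23.6% of LSU reads shared such a stretch. The mammalian 5.8S form shares one too, so the overlap does not by itself mark a tag as foreign.

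Few members were common to all libraries. The 591 members listed in all 9 libraries held 38.7% of member reads, while 136278 members, 82.7% of them all, were listed in 1 library and held 15.2% of reads.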

How the data were processed

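The deposited files, 1 per library, list tags with whole-number read counts, the assigned name and, per the file headers, a mismatch number or an Rfam score. The counts were used as the authors deposited them. The score decided which tags entered the common floor, and it is the authors' value. Per the submitters' processing notes, Bowtie2 and Rnor_6.0 were used, with no role given. No source used here gives the search tool or its cutoff. The files list assigned tags only. Rfam names were paired with the deposited identifiers from background knowledge.

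Members and lists were chosen with earlier results of these data known. Groups came from the sample labels. Shares, lengths and ratios were compared with exact two-sided permutation tests (scipy 1.17.1). Tags and names were tested with edgeR 4.0.16 (TMM scaling, filterByExpr, quasi-likelihood F test, all 3 groups in 1 fit, Benjamini-Hochberg over all tags or names), checked on simulated data, with DESeq2 1.42.0 as an alternative. Edits were counted with edlib. The rule for naming tags was the leading 5 per family and the 3 with the smallest p per comparison. Not every leading LSU tag is described. Named outside this rule are some of the printed mammalian and rat-identical tags, and tags called under an alternative setting. Tags not recognised as mammalian are described by length and rank, with no sequence. Replicates of a group differed beyond sampling noise (chi-square over degrees of freedom 52.6 to 367). Alternatives tried were other scalings, no filter, DESeq2, a replicate block, tags grouped by their first 15 bases, tags of at least 10 reads, a denominator without tRNA, 1 name per tag, and each library left out. The common score floor, tags listed in all 9 libraries and tighter alignments were added after the data had been seen.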

Additional observations from a re-analysis of the deposited data

How the results depend on the processing

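No family share, tag length or LSU to SSU ratio passed its test under any setting tried, in a design where the exact permutation test of 3 against 3 libraries cannot go below p = 0.1. Of their 24 differences, 3 kept 1 direction in every setting: the sum of shares in LPS+AS-IV against LPS (1.33 to 11.96 percentage points), and in LPS against Control the lengths of LSU (0.33 to 1.38 nt) and SSU tags (0.11 to 0.99 nt). With the common score floor, LPS against Control turned to 2.49 percentage points for 5.8S and 1.31 for the sum, and LPS+AS-IV against LPS to -1.95 for 5.8S. With tRNA left out of the denominator, LPS+AS-IV against Control turned to -0.023 for SSU, -0.67 for LSU and -0.44 for the sum. For lengths, counting each distinct tag once turned LPS+AS-IV against LPS to -0.25 nt for 5.8S, and LPS+AS-IV against Control to -0.14 nt for 5.8S and -0.26 nt for LSU. The floor turned SSU for LPS+AS-IV against Control to 0.21 nt. Family log2 fold changes (edgeR) with the floor were -0.55 for 5.8S and -0.039 for SSU in LPS+AS-IV against LPS, -0.13 for 5.8S in LPS+AS-IV against Control and -0.011 for LSU in LPS against Control. With library totals they were -0.0067 for 5.8S and -0.065 for LSU in LPS against Control, 0.40 for LSU for the pretreated group against LPS, and 0.44 for SSU and 0.33 for LSU in LPS+AS-IV against Control. The causes were not tested.

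Of the member tags called, DESeq2's test gave 128, 240 and 249 where edgeR gave 0. Over all tags DESeq2 called 342, 529 and 541, which were 3.15%, 4.75% and 4.44% of those it gave an adjusted p. Without the filter, edgeR called 1 in LPS+AS-IV against Control, the leading 5.8S tag, and the same tag without LPS+AS-IV 1. It was the only tag called, of 485728 and 29828 tags tested. Without LPS+AS-IV 3 it called 5 of 12818 members lower in LPS than in Control, beside 8 of 32811 tags in all. They were SSU ranks 4, 5, 12 and 26, which are nested versions of 1 fragment, and 5.8S rank 66. The SSU tags rested on Control 2 and Control 3. The 5.8S tag rested on Control 3 alone, with 0, 0 and 5782 reads in Control 1 to 3, and had 2192 reads in LPS+AS-IV 2. The other scalings, the floor, tags listed in all 9 libraries and grouped tags gave 0. Over the scalings, the median log2 change of all tags moved from -0.34 to -0.21 in LPS against Control.

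Over tags, correlations of same-numbered deviations ran from -0.09 to 0.28, with a mean of 0.08. Those of differently numbered libraries ran from -0.22 to 0.11, with a mean of -0.04. The sum of shares rose with the replicate number in each group, and the tRNA share fell. The sum went from 12.6% to 32.2% in Control, 14.0% to 31.6% with LPS alone and 15.4% to 35.8% in the pretreated group. Whether same-numbered libraries were handled together was not tested. With the replicate block the tags called stayed at 0, the LSU family in LPS against Control turned to -0.056, and the sum of shares was higher in 3 of 3 same-numbered pairs for LPS+AS-IV against LPS and against Control, each with an exact sign-flip p of 0.25, the smallest that 3 pairs allow.

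Leaving out 1 library at a time turned most differences. In percentage points, LPS against Control ran from -3.28 to 4.34 for 5.8S, -1.52 to 0.85 for SSU, -1.46 to 0.79 for LSU and -5.96 to 3.84 for the sum. LPS+AS-IV against LPS ran from -4.49 to 5.41, -1.03 to 3.62 and -0.99 to 3.92 for the families, and 1.33 to 11.96 for the sum. LPS+AS-IV against Control ran from -4.54 to 5.92, -1.35 to 3.30 and -1.29 to 3.63, and -0.36 to 11.3 for the sum. Lengths in nt for 5.8S ran from -0.58 to 0.68, -0.86 to 1.23 and -0.72 to 1.37 in the 3 comparisons, in the same order. In LPS against Control they ran from 0.11 to 0.99 for SSU and 0.72 to 1.38 for LSU. In the other 2 comparisons they ran from -2.25 to 0.52 and -1.76 to 1.01 for SSU, and -1.96 to 0.19 and -0.92 to 1.23 for LSU. The log2 ratio ran from -0.16 to 0.24, -0.31 to 0.10 and -0.20 to 0.10. Family log2 fold changes ran from -0.44 to 0.61, -1.15 to 0.72 and -1.06 to 0.81 for 5.8S, -0.33 to 0.17, -0.17 to 0.28 and -0.26 to 0.21 for SSU, and -0.24 to 0.41, -0.45 to 0.20 and -0.28 to 0.067 for LSU. Member tags called ran from 0 to 5 in LPS against Control and 0 to 1 in LPS+AS-IV against Control.

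Depth limits single tags: 3 reads equal 0.315 to 0.861 RPM.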
